A study of Homo sapiens with 35 samples.

Results

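The plasminogen activators PLAT and PLAU, the urokinase receptor PLAUR, the serpins SERPINE2 and SERPINI1 and the neurotrypsin gene PRSS12 were followed through retinoid and valproate treatment of BE(2)-C cells, an established human neuroblastoma line that is 1 clone. The members were every probe set annotated to exactly 1 of these 6 symbols, which gave 9 of 19415 single-symbol probe sets and 6 of 11940 genes. The set was chosen by earlier results of these arrays, in which the changes of its genes against DMSO had been measured. Those changes are therefore given as a description, with no p-value. The members' other contrasts reuse the same groups, so they too are a description, also where a call is said to have passed. The cells received DMSO as vehicle, all-trans retinoic acid (ATRA, a differentiating retinoid) at 5 µM, valproic acid (VPA, a histone deacetylase inhibitor) at 1 mM, or both agents at those doses (the combination). RNA was taken after 6, 24 or 72 h and hybridised to 35 arrays in 12 groups. Each group had 3 arrays, except DMSO at 72 h, for which 2 were analysed. The labels say that cells were treated in triplicate but not that the replicates came from separate passages, so the errors and p-values measure only the spread between these samples.

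Tissue-type plasminogen activator (PLAT) and urokinase (PLAU) are secreted serine proteases that cut plasminogen into plasmin, a broad protease that degrades matrix. PLAUR holds urokinase at the cell surface, SERPINE2 (protease nexin-1) and SERPINI1 (neuroserpin) trap activators in inactive complexes, and neurotrypsin (PRSS12) is a synaptic protease that cleaves agrin. In the nervous system tissue-type activator is released from growing axons and at synapses, neuroserpin is its main neuronal inhibitor, and loss of neurotrypsin causes intellectual disability.

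PRSS12 had the widest range of group means among the 6 genes, and SERPINE2 was the member whose change with VPA alone was called at 24 h and not at 72 h. Their promoter windows are therefore shown, as the 250 bases before each annotated start on the minus strand of GRCh38.p14, taken from RefSeq. Capitals mark the GC box (GGGCGG) and the CCAAT box (CCAAT) on either strand.
PRSS12, chr4:118353004-118353253: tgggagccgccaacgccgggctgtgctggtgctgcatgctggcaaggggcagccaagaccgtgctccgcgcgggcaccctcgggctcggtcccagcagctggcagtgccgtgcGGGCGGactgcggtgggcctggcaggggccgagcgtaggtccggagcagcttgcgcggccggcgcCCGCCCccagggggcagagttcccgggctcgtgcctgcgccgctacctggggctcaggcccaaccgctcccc
SERPINE2, downstream start, chr2:224031479-224031728: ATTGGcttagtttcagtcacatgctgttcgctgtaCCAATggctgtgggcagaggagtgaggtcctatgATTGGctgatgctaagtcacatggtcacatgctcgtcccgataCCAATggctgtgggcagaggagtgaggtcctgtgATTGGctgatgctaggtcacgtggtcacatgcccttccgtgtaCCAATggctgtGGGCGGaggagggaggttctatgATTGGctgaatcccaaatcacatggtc
SERPINE2, upstream start, chr2:224038641-224038890: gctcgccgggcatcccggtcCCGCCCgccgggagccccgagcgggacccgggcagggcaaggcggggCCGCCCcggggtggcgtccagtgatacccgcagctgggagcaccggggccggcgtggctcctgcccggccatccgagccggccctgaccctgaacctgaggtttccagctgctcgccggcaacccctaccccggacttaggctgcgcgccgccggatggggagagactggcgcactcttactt
The PRSS12 window was 76.4% G or C and held 2 GC boxes and no CCAAT box. The upstream SERPINE2 window was 75.2% G or C and also held 2 GC boxes. The downstream SERPINE2 window was 53.2% G or C and held 7 CCAAT boxes, 1 GC box, 1 CACGTG and 1 AGGTCA, the last 2 overlapping. It is built of a repeated unit: set against itself at a shift of 77 bases, 127 of 173 bases (73.4%) were identical, against 37.6% at the next best shift. Over 35116 promoter windows of this length, 42.6% held GGGCGG, 32% held CCAAT, 12.1% held AGGTCA and 6.34% held CACGTG. The retinoid direct repeats of AGGTCA with 2 or 5 spacer bases, searched on both strands, were in none of the 7 windows, which belong to 5 of the genes and not to PLAT, and in 0.00285% of all windows each. These are matches of letters in 1 window and describe neither binding nor its absence.

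The values are array intensities on a linear scale, and 1 intensity unit has no meaning across probe sets, so levels are compared only within a probe set. The arrays' lower quartiles lay between 20.8 and 23.6, which is used here as a guide to dim signal. The DMSO 24 h replicate 1 array stood apart, with a median intensity of 43.6 against 53.1 to 58.9 on the others and a residual SD of 0.234 log2 units against 0.083 to 0.172. Values at 24 h against DMSO are therefore also given without it for the changes that the text turns on. The log2 ratio of 3′ to 5′ control probe sets, a sign of RNA integrity and labelling, moved with time and treatment. It went from 0.27 in DMSO at 6 h to 1.06 in DMSO and 1.82 with ATRA at 72 h. With VPA it was 1.6 ± 0.63 (SD) at 24 h and 1.09 ± 0.16 at 72 h, against 1.05 ± 0.26 in DMSO at 24 h. Its part in the results was examined only as a covariate. CRABP2, a retinoid-binding protein induced by retinoic acid, rose with ATRA by 1.62 ± 0.17 (SE) log2 units at 6 h and by 3.73 ± 0.19 at 72 h. CYP26A1, the retinoic acid hydroxylase, differed by 0.46 ± 0.17 at 6 h, which did not pass, and rose by 4.73 ± 0.19 at 72 h. Of 8 measured noradrenergic neuroblastoma markers 7 exceeded an intensity of 100 in some group, while HAND2 stayed between 25.3 and 40.9. Of 7 fibroblast markers 6 also exceeded 100, with group sums from 2307 to 3661 (2379 in DMSO and 2307 with ATRA at 72 h) and COL1A2 between 19.4 and 30.6; no endothelial, macrophage or Schwann marker did. Of 5 epithelial markers KRT18 (up to 115) and KRT19 (up to 456) did, and from DMSO to ATRA at 72 h the summed epithelial markers went from 177.7 to 332.1 (154.2 to 570.9 over all groups) and the noradrenergic ones from 15790 to 12490 (12490 to 16950). The part of any of these in the members' changes was not tested, and in bulk RNA fewer cells of a type and less RNA per cell cannot be told apart.

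PLAT, the tissue-type activator, rose with ATRA at every time point and was higher the longer the treatment lasted. On the 3 ATRA arrays (probe set 201860_s_at) its intensity was 749, 781 and 735 at 6 h, 1385, 1262 and 1394 at 24 h, and 2120, 2058 and 2390 at 72 h. The DMSO arrays gave 361, 359 and 359 at 6 h, 300, 219 and 253 at 24 h, and 188 and 194 at 72 h. Every ATRA array lay above every DMSO array, and the ATRA groups of the 3 times did not overlap one another. The log2 difference from time-matched DMSO was 1.07 ± 0.10 (SE; 2.09-fold) at 6 h, 2.39 ± 0.10 (5.26-fold) at 24 h and 3.51 ± 0.12 (11.4-fold) at 72 h. Without DMSO 24 h replicate 1 the 24 h difference was 2.51.

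With VPA alone PLAT moved much less. Its intensity was 356, 329 and 312 at 6 h, 337, 422 and 375 at 24 h, and 309, 337 and 314 at 72 h. All 24 h and 72 h VPA arrays lay above the DMSO arrays of their time, whereas at 6 h every VPA array lay below every DMSO array by a difference that did not pass the test (an adjusted p under 0.05 in limma over all genes). PLAT rose with VPA by 0.56 ± 0.10 log2 units (1.47-fold) at 24 h and by 0.74 ± 0.12 (1.67-fold) at 72 h, and the 6 h difference was -0.12 ± 0.10. The 24 h VPA value was 0.68 without DMSO 24 h replicate 1, and did not pass when only the compared groups were fitted. With the combination PLAT gave 665, 602 and 554 at 6 h, 1077, 1266 and 1382 at 24 h, and 2086, 2158 and 2492 at 72 h. Those groups were close to the ATRA groups at 24 and 72 h, whose ranges they overlapped, and below the ATRA group at 6 h, which they did not reach. The combination raised PLAT over DMSO by 0.75, 2.27 and 3.54 log2 units at 6, 24 and 72 h (2.39 at 24 h without DMSO 24 h replicate 1).

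In the order of its 12 group means PLAT was lowest in DMSO at 72 h (191.2 ± 4.1 SD, n = 2) and highest with the combination at 72 h (2245 ± 217, n = 3). DMSO at 24 h (257.3 ± 40.6) came next above the lowest and did not overlap it. Neighbours that overlapped were VPA at 72 h and 6 h, DMSO at 6 h and VPA at 24 h, the combination and ATRA at 24 h, and ATRA and the combination at 72 h. All other neighbours in the order were separated by their arrays.

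**Figure D1:**
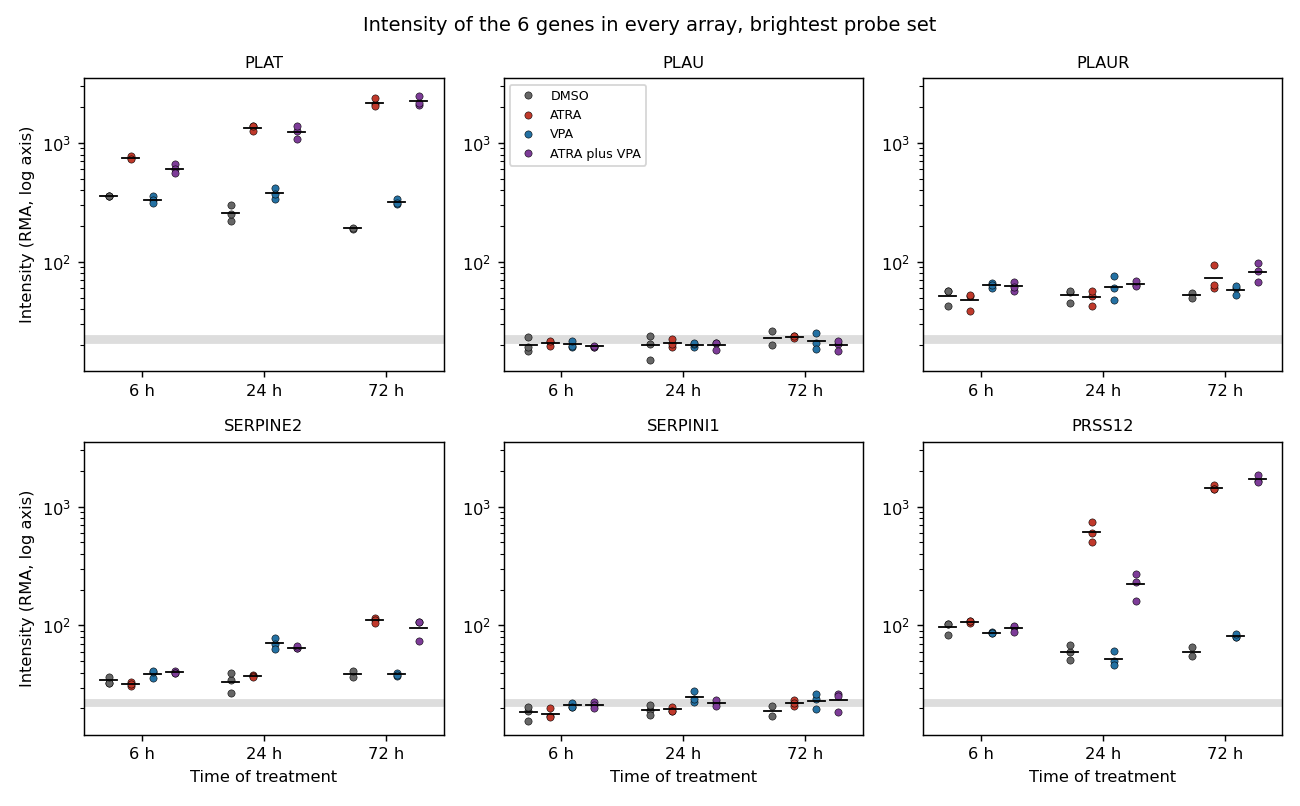
Intensity (log axis) of the brightest probe set of each of the 6 genes on every array, by treatment and time; points are single arrays, black bars are group means of 3 arrays (2 for DMSO at 72 h) and the grey band spans the arrays' lower quartiles, 20.8 to 23.6. PLAT and PRSS12 reach their highest levels with ATRA and with the combination at 72 h, SERPINE2 is raised with VPA at 24 h but not at 72 h, and PLAU and SERPINI1 lie in or near the grey band.

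PLAU, the urokinase gene, gave no such signal. Its 35 arrays (probe set 205479_s_at) lay between 15.02 and 26.18, at the level of the lower quartile, and its 12 group means lay between 19.35 and 23.36, with every neighbour in the order overlapping. Its differences from time-matched DMSO ran from -0.19 with the combination at 72 h to 0.07 with ATRA at 24 h, and none passed. At so dim a signal a change in urokinase RNA could not be measured, and the values do not show that it was absent.

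PLAUR, the urokinase receptor, was measured by 3 probe sets that did not give the same account. On the brightest, 211924_s_at, the DMSO arrays read 55.0 and 49.3 at 72 h, the ATRA arrays 60.5, 93.4 and 64.4, the VPA arrays 59.6, 52.1 and 63.1, and the combination arrays 83.0, 67.9 and 96.8. All ATRA and combination arrays exceeded both DMSO arrays, with the ATRA group spread widely by 1 array. PLAUR rose with the combination by 0.64 ± 0.18 log2 units (1.56-fold), and with ATRA alone the difference was 0.45 ± 0.18, which did not pass. At 6 and 24 h its differences lay between -0.13 and 0.31 in the 3 treatments and none passed, nor did the 24 h values without DMSO 24 h replicate 1 (-0.17, 0.09 and 0.20 with ATRA, VPA and the combination). The combination call was lost without DMSO 72 h replicate 2 (0.56) or combination replicate 3 (0.52), and the ATRA value passed when the probe sets were averaged, under array weights, after a repeated quantile normalization and without ATRA replicate 1 (0.57).

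The second PLAUR probe set, 210845_s_at, gave a dimmer signal but a clearer separation. At 72 h it read 22.2 and 21.3 in DMSO, 33.5, 26.4 and 27.5 with VPA, 37.9, 43.3 and 37.4 with ATRA, and 60.8, 74.0 and 57.3 with the combination. The 4 groups at 72 h did not overlap and stood in that order. Fitted with every probe set as a feature, it rose with ATRA by 0.83 ± 0.16 log2 units and with the combination by 1.51 ± 0.16, and the combination exceeded ATRA alone by 0.68 ± 0.15. Over all 19415 probe sets 26.6%, 26.4% and 16.9% passed in these 3 comparisons. The third probe set, 214866_at, had group means from 20.55 to 24.7, in the dim range, and none of its differences passed. Over the 12 group means 211924_s_at correlated with 210845_s_at at r = 0.89 and with 214866_at at r = 0.41, as a description over points that share arrays.

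**Figure D2:**
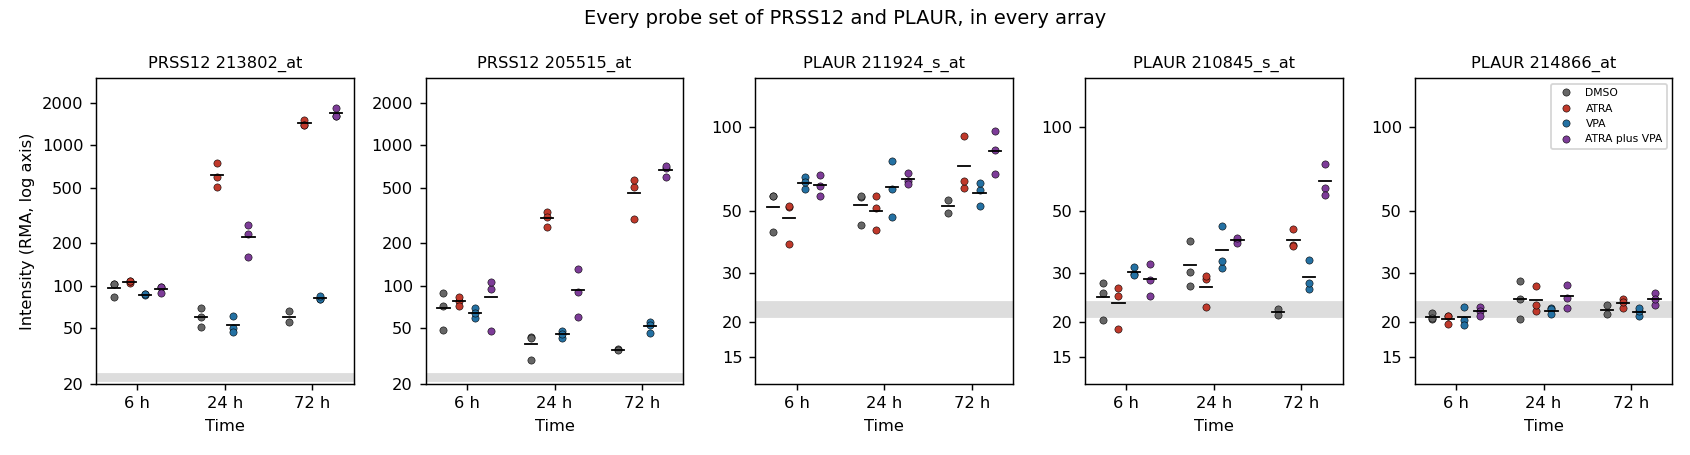
Intensity on every array (log axis) of the 2 PRSS12 and the 3 PLAUR probe sets, by treatment and time; black bars are group means and the grey band spans the arrays' lower quartiles. The PRSS12 probe sets move together, 213802_at reaching 1855 and 205515_at 707 with the combination at 72 h, while for PLAUR 210845_s_at separates the 72 h groups, 211924_s_at overlaps between them and 214866_at stays dim.

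SERPINE2, the inhibitor protease nexin-1, was raised with VPA at 24 h and with ATRA at 72 h. At 24 h probe set 212190_at read 26.8, 34.5 and 39.8 in DMSO, 37.9, 37.7 and 36.6 with ATRA, 78.3, 70.4 and 63.0 with VPA, and 64.0, 64.4 and 67.1 with the combination. At 72 h it read 36.5 and 41.2 in DMSO, 39.8, 37.7 and 38.6 with VPA, 116, 112 and 106 with ATRA, and 107, 106 and 74.4 with the combination. So the VPA groups were high at 24 h and back within the DMSO range at 72 h, while the ATRA group lay within the DMSO range at 24 h and above it at 72 h. The combination was raised at both times.

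SERPINE2 rose with VPA by 1.06 ± 0.11 log2 units (2.08-fold) at 24 h, and at 72 h the difference was 0.00 ± 0.13 with a 95% interval from -0.26 to 0.26. ATRA gave differences of -0.10 at 6 h and 0.16 at 24 h that did not pass, then a rise of 1.49 ± 0.13 (2.81-fold) at 72 h. With the combination SERPINE2 rose by 0.95 ± 0.11 (1.93-fold) at 24 h and by 1.26 ± 0.13 (2.40-fold) at 72 h. Its dim baseline made the size depend on the pseudocount: at 32 in place of 1 the VPA rise at 24 h was 0.64 and the ATRA rise at 72 h 1.01. Without DMSO 24 h replicate 1 the VPA rise at 24 h was 0.91 and the combination's 0.80. In the order of group means, 8 groups from 32.08 to 40.22 formed an overlapping chain, above which came the combination and VPA at 24 h (65.16 and 70.58), and then the combination and ATRA at 72 h (95.75 ± 18.5 and 110.9 ± 5.1).

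SERPINI1, neuroserpin, was dim on every array (probe set 205352_at, 15.72 to 28.1), with group means from 18.1 to 24.92 and every neighbour overlapping. The largest difference from DMSO was with VPA at 24 h, where the arrays read 22.9, 23.8 and 28.1 against 19.6, 17.6 and 21.5. Those groups did not overlap, but the difference of 0.33 ± 0.12 log2 units did not pass; it did under array weights (0.41) and without DMSO 24 h replicate 3 (0.40), but not without replicate 1 (0.34).

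PRSS12, the neurotrypsin gene, differed little from DMSO at 6 h and had the widest range of the 6 genes by 72 h. On probe set 213802_at the 6 h arrays read 103, 103 and 83.8 in DMSO and 104, 109 and 108 with ATRA, groups that did not overlap but whose difference did not pass. At 24 h they read 50.8, 59.5 and 68.8 in DMSO, 597, 503 and 743 with ATRA, 50.3, 60.5 and 46.7 with VPA, and 161, 233 and 272 with the combination. At 72 h they read 54.8 and 65.5 in DMSO, 1521, 1396 and 1406 with ATRA, 80.4, 80.3 and 84.6 with VPA, and 1630, 1620 and 1855 with the combination. At 24 h the combination arrays all lay below the ATRA arrays, and at 72 h they all lay above them. The 4 highest group means, the combination at 24 h (221.9 ± 56.5), ATRA at 24 h (614.1 ± 121), ATRA at 72 h (1441 ± 69.6) and the combination at 72 h (1702 ± 133), did not overlap one another. The lowest, VPA and DMSO at 24 h and DMSO at 72 h (52.48, 59.73 and 60.14), overlapped.

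With ATRA PRSS12 rose by 3.33 ± 0.14 log2 units (10.1-fold) at 24 h and 4.56 ± 0.16 (23.7-fold) at 72 h, and the 6 h difference was 0.15 ± 0.14. With the combination it rose by 1.85 ± 0.14 (3.61-fold) at 24 h and 4.80 ± 0.16 (27.9-fold) at 72 h. VPA alone gave differences of -0.15, -0.18 and 0.44 at 6, 24 and 72 h, none of which passed. At 72 h, though, every VPA array lay above both DMSO arrays on each of the PRSS12 probe sets. The other PRSS12 probe set, 205515_at, rose with ATRA by 2.96 ± 0.26 and 3.62 ± 0.29 at 24 and 72 h (14.8% and 26.6% of all probe sets passed), and its group means followed the first at r = 0.99. At the pseudocount of 32 the 213802_at values with ATRA were 2.80 and 4.0, and without DMSO 24 h replicate 1 the 24 h values were 3.22 with ATRA and 1.74 with the combination.

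AGRN, which encodes agrin, the best known neurotrypsin substrate, had its own response. Its mean intensity was 48.84 in DMSO and 91.76 with VPA at 6 h, and 55.28 and 99.82 at 24 h, with 42.61 under ATRA and 55.03 under the combination at 24 h. AGRN rose with VPA by 0.90 ± 0.17 log2 units at 6 h (limma adjusted p = 0.00034) and by 0.84 ± 0.17 at 24 h (adjusted p = 0.00077), and at 72 h the difference of 0.50 ± 0.19 did not pass (adjusted p = 0.12). At 24 h it was lower with the combination than with VPA alone (-0.86 ± 0.17, adjusted p = 0.00047). With ATRA alone its differences were -0.14, -0.36 and -0.19 at 6, 24 and 72 h, and none passed. When all AGRN probe sets were averaged, the VPA value at 6 h was 0.25 and did not pass, and that at 24 h was 0.30 and passed. Without DMSO 24 h replicate 1 the VPA value at 24 h was 0.73.

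Read against all genes, the members' calls at an adjusted p of 0.05 were as follows, and nothing is drawn from the counts because the same contrasts were known when the genes were picked. With ATRA 1 of the 6 genes rose at 6 h (1.62% of all genes passed in either direction and 1.03% rose), 2 at 24 h (18.5% and 12.5%) and 3 at 72 h (30.9% and 10.7%). With VPA none passed at 6 h (11.2% of all genes did), 2 rose at 24 h (12.2% passed and 9.67% rose) and 1 at 72 h (6.67% and 4.51%). With the combination 1 rose at 6 h (11.6% and 6.73%), 3 at 24 h (21.2% and 13.4%) and 4 at 72 h (31.5% and 14.9%). No member fell in any comparison with time-matched DMSO. The split over all genes moved with the scaling: after a repeated quantile normalization ATRA gave 1064 rises and 1197 falls at 24 h in place of 1493 and 717, and 1528 and 1794 at 72 h in place of 1277 and 2415. VPA at 24 h gave 992 and 452 in place of 1155 and 298, and the combination at 24 h 1333 and 1347 in place of 1605 and 926.

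**Figure D3:**
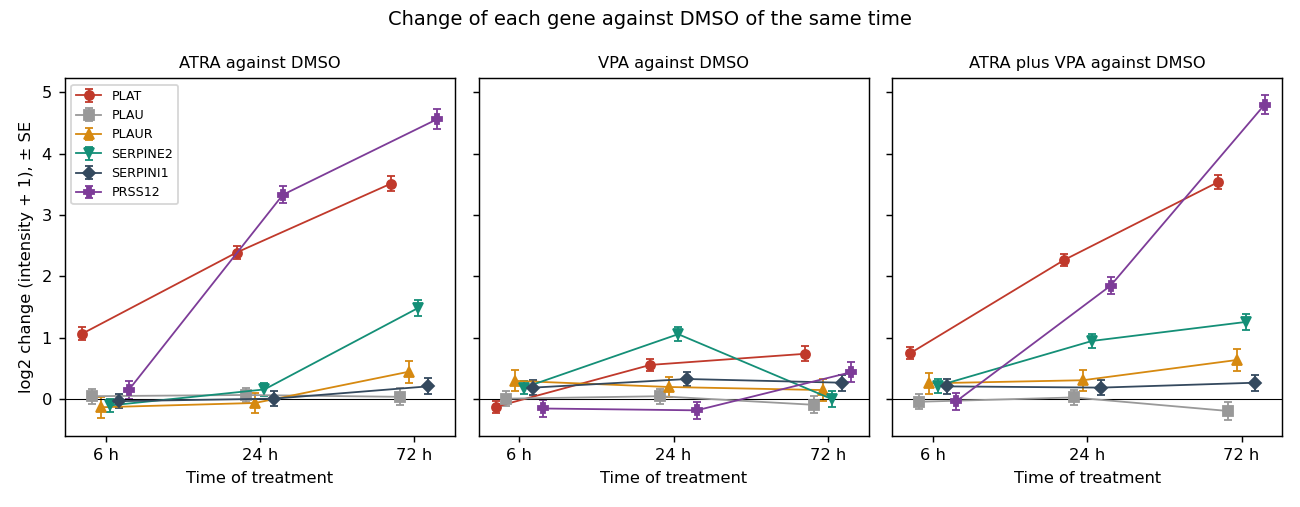
Log2 difference from time-matched DMSO (points, with bars of 1 SE) for the 6 genes at 6, 24 and 72 h, in a panel for each treatment. PLAT and PRSS12 climb with ATRA and with the combination to between 3.51 and 4.80 at 72 h, and SERPINE2 peaks at 24 h with VPA (1.06) but at 72 h with ATRA (1.49).

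The design also asks what each agent did on top of the other. VPA added to ATRA lowered PRSS12 at 24 h by 1.48 ± 0.14 log2 units (2.79-fold lower) and raised SERPINE2 by 0.78 ± 0.11 (1.72-fold), the 2 members that passed at that time (9.48% of all genes passed). At 6 h it lowered PLAT by 0.32 ± 0.10 (1.25-fold), the only member to pass (4.84% of all genes fell). At 72 h none of the 6 passed on its brightest probe set (20.8% of all genes did). The PLAT difference was 0.04 with a 95% interval from -0.18 to 0.25. That of PRSS12 was 0.24 ± 0.14, that of SERPINE2 -0.23 ± 0.11 and that of PLAUR 0.19 ± 0.17. On the second PLAUR probe set, 210845_s_at, the combination arrays at 72 h all lay above the ATRA arrays, with means of 64.05 against 39.52. The PLAT call at 6 h rests on little: it was lost with the replicate number as a block, with every probe set as a feature, after a repeated quantile normalization (-0.28) and without any 1 of the ATRA 6 h arrays or combination 6 h replicate 2 or 3 (-0.34 to -0.25). The PRSS12 difference at 24 h was -1.74 ± 0.26 on its other probe set (6.81% of all probe sets passed).

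ATRA added to VPA raised PLAT at every time, by 0.87, 1.71 and 2.80 ± 0.10 log2 units at 6, 24 and 72 h. PRSS12 rose by 2.03 at 24 h and 4.36 ± 0.14 (20.5-fold) at 72 h, SERPINE2 by 1.27 ± 0.11 (2.40-fold) at 72 h and PLAUR by 0.48 ± 0.17 (1.40-fold) at 72 h. These make 1, 2 and 4 members that rose at the 3 times, where 0.570%, 11.9% and 25.7% of all genes passed and 0.452%, 5.13% and 12.3% rose. The PLAUR call was lost without VPA 72 h replicate 1 or 2 or combination 72 h replicate 1 or 3, with values from 0.36 to 0.50.

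Whether the combination equalled the sum of the single-agent log2 differences was read from the ATRA by VPA interaction. A sum on the log2 scale is a product of folds, so a value below it need not lie below the added intensities. How the combination stood against added intensities was not tested. At 24 h the PRSS12 mean with the combination lay below that with ATRA alone (221.9 against 614.1). At 72 h the PLAT mean with the combination was near that with ATRA alone (2245 against 2189). For PLAT the single-agent values summed to 2.95 at 24 h and 4.25 at 72 h, and the combination gave 2.27 and 3.54. The interaction was -0.68 ± 0.15 log2 units at 24 h and -0.70 ± 0.16 at 72 h, both passed. For PRSS12 at 24 h the sum was 3.15 and the combination 1.85, with an interaction of -1.30 ± 0.20 that passed; at 72 h the sum was 5.01 and the combination 4.80, and the interaction of -0.20 ± 0.21 did not pass. SERPINE2 gave sums of 1.22 and 1.49 and combination values of 0.95 and 1.26 at 24 and 72 h, with interactions of -0.27 ± 0.16 and -0.23 ± 0.17 that did not pass. Thus 2 members at 24 h and 1 at 72 h lay below the sum, where 0.745% and 1.96% of all genes passed (0.670% and 0.620% below it). At 6 h none of the 6 passed, nor did any of the 11940 genes with limma, 281 of which had an unadjusted p below 0.05.

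Over all genes the 72 h interaction split was 160 above and 74 below the sum, and 117 and 114 after a repeated quantile normalization. The PLAT interaction at 24 h was lost without DMSO replicate 2 (-0.57), VPA replicate 2 (-0.60), ATRA replicate 3 (-0.66) or combination replicate 1 (-0.58), after a repeated quantile normalization (-0.56) and with only the compared groups fitted, and the one at 72 h without either DMSO array (-0.68 and -0.73). The PRSS12 interaction at 24 h was lost only when the compared groups alone were fitted, and was -1.99 ± 0.36 on the other probe set (0.453% of all probe sets passed). Without DMSO 24 h replicate 1 the 24 h interactions were -0.80 for PLAT and -1.19 for PRSS12.

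**Figure D4:**
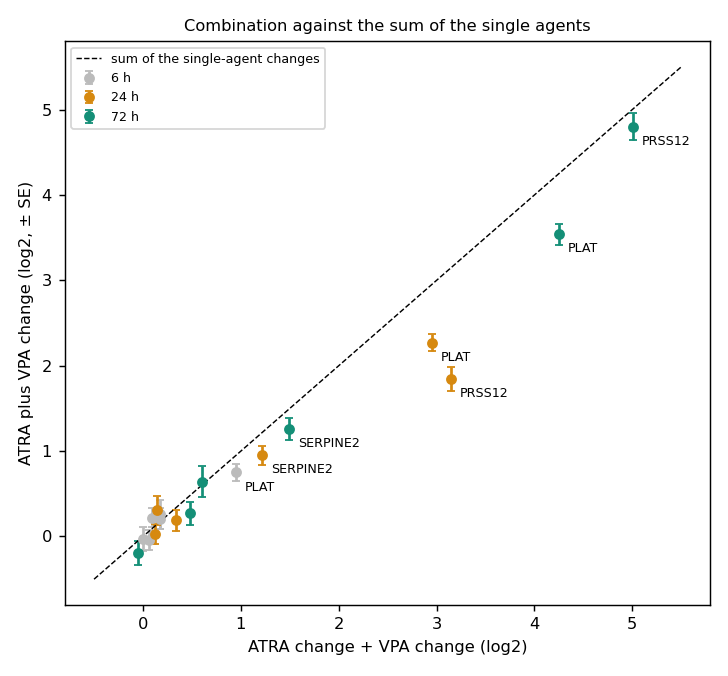
Log2 difference of the combination from DMSO (vertical axis, bars of 1 SE) against the sum of the differences with ATRA alone and VPA alone (horizontal axis), for the 6 genes at 6, 24 and 72 h; the dashed line marks equality. PRSS12 at 24 h (3.15 and 1.85) and PLAT at 24 h (2.95 and 2.27) and 72 h (4.25 and 3.54) lie below the line by amounts that passed the interaction test.

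The vehicle cells drifted as well. From 6 h to 24 h and 72 h in DMSO, PLAT fell by 0.49 and 0.91 log2 units (1.41-fold and 1.88-fold lower) and PRSS12 by 0.69 and 0.68. These were the 2 members that fell at either time, where 15.3% and 10.6% of all genes passed and 10.1% and 5.52% fell. After a repeated quantile normalization the all-gene split at 24 h was 1319 rises and 837 falls in place of 619 and 1202, and at 72 h 921 and 644 in place of 607 and 659. Without DMSO 24 h replicate 1 the 24 h values were -0.61 for PLAT and -0.58 for PRSS12. With the 3′ to 5′ ratio as a covariate 71 genes rose and 111 fell at 24 h, and 247 and 195 at 72 h, and the PRSS12 calls were lost (-0.61 and -0.60); the 24 h PLAT call was lost after a repeated quantile normalization (-0.33), and the 72 h PRSS12 call was lost without DMSO 72 h replicate 1 (-0.55).

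Because each time had its own DMSO group, the growth of an effect from 6 h to 72 h could be taken as a difference of differences. With ATRA it was 2.44 ± 0.16 log2 units for PLAT, 1.59 ± 0.17 for SERPINE2 and 4.41 ± 0.21 for PRSS12, 3 members where 17.4% of all genes passed and 5.58% passed upwards. The all-gene split was 666 up and 1407 down, and 885 and 937 after a repeated quantile normalization. With the combination the same 3 genes gave 2.79 ± 0.16, 1.04 ± 0.17 and 4.83 ± 0.21 (17.0% of all genes passed, 7.87% upwards). With VPA PLAT passed (0.86 ± 0.16, where 2.00% of all genes passed, 1.24% upwards), while SERPINE2 at -0.19 ± 0.17 and PRSS12 at 0.59 ± 0.21 did not. The PLAT level with VPA did not itself climb, with means of 332.4, 378.3 and 320.1 at 6, 24 and 72 h. The DMSO mean fell from 359.7 at 6 h to 191.2 at 72 h.

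Across the 12 group means PLAT and PRSS12 correlated at r = 0.92, PLAUR and SERPINE2 at r = 0.85, and SERPINE2 with PLAT and PRSS12 at r = 0.68 and 0.69. These are descriptions over points that share arrays and normalization. Among 2076 or 2077 other genes with a highest group mean of at least 100 and a range of at least 1 log2 unit, the nearest to PLAT were DUSP6, LHFPL2 and DPYSL3 (r = 0.969 each). PRSS12 was most like COL13A1 (0.977), then KCTD13 and DCLK1 (0.969 each), and SERPINE2 most like ZNF419 (0.945), TSPAN13 (0.931) and SYT2 (0.924). The nearest to PLAUR were SYNGR3 (0.972), LBH and TMEFF1 (0.961 each). PLAU and SERPINI1 spanned only 0.26 and 0.44 log2 units, and their nearest genes were H2BC21 (0.818), PKIA (0.769) and ZNF160 (0.75), and RAB15 (0.926), PROCR (0.924) and NUCB2 (0.923).

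Genes in and around the plasminogen system were read from 5 lists, chosen with earlier results of these data known. Most genes are named below for a passing change in the same 72 h contrasts. The p-values of listed genes, AGRN included, are therefore a description and no independent test. The lists hold 90 other genes, 82 of them measured. With ATRA 20 of these rose and 4 fell at 72 h, or 29.3% passing against 30.9% of all genes, and at 24 h 14 rose and 0 fell, or 17.1% against 18.5%. At 6 h none passed with limma (5 had an unadjusted p below 0.05, and up to 2 passed under array weights). With VPA 9 rose and 1 fell at 72 h (12.2% against 6.67%), and with the combination 19 rose and 3 fell (26.8% against 31.5%). Over all genes 10.7%, 4.51% and 14.9% rose at 72 h with ATRA, VPA and the combination, and 12.5% with ATRA at 24 h. The ATRA splits moved with the scaling, as given above. The same all-gene shares stand beside the 72 h counts of each of the 5 lists below. The median difference over the 82 genes at 72 h was 0.14, 0.02 and 0.06 log2 units with ATRA, VPA and the combination, against 0, -0.02 and -0.01 over all genes. The ATRA count at 72 h was 15 without DMSO 72 h replicate 2 and 16 without replicate 1, and the VPA count was 6 without either; the ATRA count at 24 h was 10 without DMSO 24 h replicate 1.

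Plasminogen and its docking proteins rose in part. Of 9 measured genes 3 rose and 1 fell with ATRA at 72 h (median 0.07), and the same counts held for the combination (median 0.20), while 2 rose with VPA (median 0.03). ANXA2 and S100A10, the subunits of the annexin A2 heterotetramer that docks plasminogen and tissue-type activator, were raised by all 3 treatments at 72 h. ANXA2 stood at 3048 ± 201 (SD, n = 2) in DMSO, 5835 ± 181 under ATRA, 4266 ± 143 under VPA and 7228 ± 258 under both agents (n = 3 each), a difference of 0.94 ± 0.08 (limma adjusted p = 4.2e-10) with ATRA and 1.25 with the combination. S100A10 stood at 1203, 2293, 2275 and 3395 in the same order, 0.93 ± 0.10 (adjusted p = 2e-08) with ATRA and 1.5 (adjusted p = 5.9e-13) with the combination. ENO1, the glycolytic enolase that also binds plasminogen, fell with ATRA by 0.71 ± 0.11 (adjusted p = 1.3e-05) from 3006 to 1842. PLG itself, plasminogen, passed with ATRA (0.40 ± 0.13, adjusted p = 0.024), but its means of 16.6 and 22.31 are in the dim range, and the call was lost without either DMSO 72 h array or ATRA replicate 2 or 3 (0.33 to 0.46). The ANXA2 probe set is of a kind that may also match near-identical sequences, so its level is uncertain.

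Of 16 other serpins and protease inhibitors, 3 rose and none fell with ATRA at 72 h (median 0.21), 1 rose with VPA (median 0.03) and 3 rose with the combination (median 0.14). SERPINB9, the granzyme B inhibitor, rose from 36.56 in DMSO to 133.5 with ATRA (1.85 ± 0.19, limma adjusted p = 7.6e-09), 69.1 with VPA (0.91, adjusted p = 0.0018) and 218.9 with the combination (2.56, adjusted p = 5.6e-12). Averaged over its probe sets the SERPINB9 values were 1.04 with ATRA and 1.34 with the combination, and the VPA call was lost without DMSO 72 h replicate 2 (0.70). SPINT1 and A2M with ATRA (0.44 and 0.31, adjusted p = 0.04 and 0.045) and SERPING1 with the combination (0.54, adjusted p = 0.0074) passed at dim levels. These calls were lost without single 72 h arrays: SPINT1 without either DMSO array or ATRA replicate 2 or 3 (0.33 to 0.48), A2M without either DMSO array or ATRA replicate 1 or 3 (0.24 to 0.31), and SERPING1 without DMSO replicate 2 (0.53) or combination replicate 3 (0.26).

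Clearance and partner receptors moved both ways. Of 19 measured, 7 rose and 3 fell with ATRA at 72 h (median 0.06), 3 rose and 1 fell with VPA (median 0.11), and 6 rose and 2 fell with the combination (median 0.05). MRC2, the collagen receptor that partners the urokinase receptor, fell with ATRA by 0.74 ± 0.16 (limma adjusted p = 6e-04) and rose with VPA by 1.66 ± 0.16 (adjusted p = 1.7e-08). Its means were 184.3 in DMSO, 109.8 under ATRA, 587.5 under VPA and 272 under both agents. VTN, vitronectin, a ligand of PLAUR, rose with ATRA by 1.19 ± 0.19 (adjusted p = 1.7e-05), from 22.29 to 52.74, and by 0.64 at the pseudocount of 32. LRP8, the reelin receptor, fell with ATRA by 0.82 ± 0.21 (adjusted p = 0.0037), and did not pass once DMSO 72 h replicate 2 was left out (-0.74). IGF2R rose with the combination by 1.00 (adjusted p = 7.8e-05) and SORL1, a sorting receptor that binds activator complexes, with VPA by 0.83 (adjusted p = 0.02) and with the combination by 0.89 (adjusted p = 0.0027). LRP1, the main clearance receptor of protease and serpin complexes, passed with ATRA (0.47 ± 0.18, adjusted p = 0.047), and its call was lost without either DMSO 72 h array or ATRA replicate 1 or 3 (0.39 to 0.55). The SORL1 call with VPA was lost without either DMSO 72 h array (0.86 and 0.80) or VPA replicate 3 (0.59).

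Among 23 measured substrates and downstream proteases, 5 rose with ATRA (median 0.10), 3 with VPA (median 0.02) and 5 with the combination (median 0.08) at 72 h, and none fell. FN1, fibronectin, a plasmin substrate, stood at 387.3 ± 28.8 in DMSO (n = 2), 2013 ± 153 under ATRA, 1165 ± 23.2 under VPA and 3940 ± 144 under both agents (n = 3 each). FN1 rose by 2.37 ± 0.12 (limma adjusted p = 4.5e-15), 1.59 (adjusted p = 3.9e-10) and 3.34 (adjusted p = 6.7e-19), on a probe set that may also match similar sequences. The metalloprotease inhibitors TIMP1 and TIMP2 rose with ATRA by 0.63 (adjusted p = 0.00076) and 0.52 (adjusted p = 0.0069), the latter call being lost without DMSO 72 h replicate 1 (0.45). BDNF, whose precursor plasmin can cleave, rose with VPA by 0.62 (adjusted p = 0.0033) at a dim level, from 20.54 to 32.65, and the call was lost without DMSO 72 h replicate 1 (0.49).

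Of 15 other serine proteases 2 rose with ATRA at 72 h (median 0.20), none passed with VPA (median -0.04), and 2 rose with the combination (median -0.01). PRSS3, mesotrypsin, a trypsin resistant to most inhibitors, rose with ATRA from 486.3 to 1242 (1.35 ± 0.13, limma adjusted p = 4.3e-09) and with the combination by 1.28, though its probe set may also match related trypsin genes. HTRA1 with ATRA (0.36, adjusted p = 0.026) and PRSS23 with the combination (0.64, adjusted p = 0.0021) passed at dim levels, and the calls were lost without single 72 h arrays, HTRA1 without either DMSO array or ATRA replicate 1 or 3 (0.29 to 0.43) and PRSS23 without DMSO replicate 2 (0.50).

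**Figure D5:**
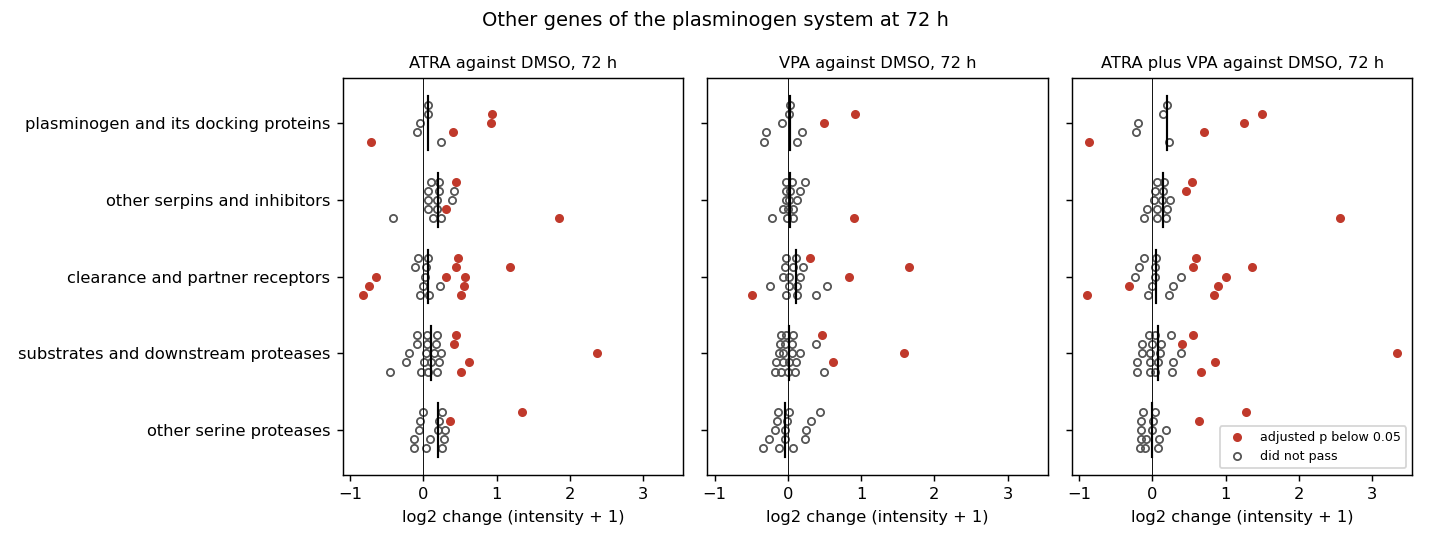
Log2 difference from DMSO at 72 h of the 82 other measured genes of the plasminogen system, by list and treatment; filled points passed an adjusted p of 0.05, open points did not, and black bars are list medians. FN1 is the highest point with ATRA (2.37) and with the combination (3.34), MRC2 the highest with VPA (1.66), and the list medians lie between -0.04 and 0.21.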

How the data were processed

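BE(2)-C RNA was hybridised to 35 arrays in 12 treatment and time groups. The authors deposited a table of 22930 probe sets whose values are intensities on a linear scale, made with RMA per the submitters' processing notes (version and build not given in the sources used here). Of these, 19415 probe sets carried 1 gene symbol, 125 several and 3292 none, and 98 controls that bear a symbol were dropped; symbols came from GEO's platform annotation, and 11874 of 11940 were matched to RefSeq.

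From the deposited intensities, log2(intensity + 1) was computed, the probe set with the highest mean stood for its gene, and limma 3.58.1 (R 4.3.3) fitted the 12 group means over all 35 arrays (lmFit, then eBayes, with residual df of 23 and prior df of 5.5). All 23 contrasts were adjusted by Benjamini-Hochberg over all 11940 genes at a threshold of 0.05, and folds are on this log2 scale, which understates changes of dim genes. The script was tested on simulated data. Promoter windows were scanned with Python 3.11.15.

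The members and gene lists were chosen with earlier results of these data known. Besides all members, the text names, for each list, up to 3 genes with the largest passing change with ATRA at 72 h and up to 2 each with VPA and the combination, and always PLG, LRP1, AGRN and ANXA2. It also names the 3 genes most like each member, and CRABP2 and CYP26A1. Alternatives were the replicate number as a block, a pseudocount of 32, leaving out the lowest 33.3% of genes, averaged probe sets, every probe set as a feature, array weights, a repeated quantile normalization, the 3′ to 5′ ratio as a covariate, a trended robust prior, only the compared groups, and each array left out in turn. The number of arrays limits the precision.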

Additional observations from a re-analysis of the deposited data

Results flagged for a closer look

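Each result here is a difference between effects, tested in limma with its own contrast. No explanation was weighed. The 6 members and the gene lists were both chosen with earlier results known, so these results and their p-values are a description.

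Sums of effects here are on the log2 scale, where they are products of folds, so a shortfall need not hold for added intensities. By group means, without a test, FN1 at 72 h was the only one of these to exceed the DMSO mean plus both single-agent rises. Its means were 387.3 in DMSO, 2013 with ATRA, 1165 with VPA and 3940 with both agents. On that log2 scale the combination fell short of the sum for PLAT at 24 h (-0.68 ± 0.15 log2 units, SE) and 72 h (-0.70 ± 0.16). PRSS12 did so at 24 h (-1.30 ± 0.20). Among the other genes of the plasminogen system the same held for FN1, fibronectin, at 24 h (-0.98 ± 0.16, adjusted p = 0.00071, and -0.83 without DMSO 24 h replicate 1) and 72 h (-0.62 ± 0.17, adjusted p = 0.048). It also held for S100A10 at 24 h (-0.52 ± 0.13, adjusted p = 0.041), PRSS3 at 24 h (-0.69 ± 0.17, adjusted p = 0.046) and BDNF at 72 h (-0.80 ± 0.18, adjusted p = 0.016). The 72 h FN1 call was lost without any 1 of 10 of the 11 arrays at that time (-0.69 to -0.54), ATRA replicate 1 being the exception. The S100A10 and PRSS3 calls were lost without most single arrays at 24 h, with values from -0.56 to -0.45 and from -0.74 to -0.58, and BDNF's without DMSO 72 h replicate 1 (-0.67). BDNF was also dim, with 72 h means of 20.54 in DMSO, 21.1 with ATRA, 32.65 ± 8.07 (SD) with VPA and 18.48 with the combination.

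The effect of treatment at 72 h exceeded that at 6 h for PLAT with ATRA (2.44 ± 0.16), VPA (0.86 ± 0.16) and the combination (2.79 ± 0.16). With VPA the PLAT mean was 332.4 at 6 h and 320.1 at 72 h, while the DMSO mean fell from 359.7 to 191.2. For SERPINE2 the 72 h effect exceeded the 6 h effect with ATRA (1.59 ± 0.17) and the combination (1.04 ± 0.17). For PRSS12 it did so with ATRA (4.41 ± 0.21) and the combination (4.83 ± 0.21).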

How the results depend on the processing

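The 41 member changes that passed were recomputed 698 times under the alternatives: 668 kept direction and call, 30 lost the call and 0 reversed, while 22 of 1632 values of the 97 others newly passed. For the named list genes, 94 changes gave 1488 values, of which 1333 kept the call, 155 lost it and 0 reversed. Same-numbered arrays were not alike on average (mean correlation -0.044, -0.003 and 0.026 at 6, 24 and 72 h). Single pairs ran from -0.297 to 0.35 at 24 h, so the check cannot show that the samples were unpaired. The replicate block moved 1 count of members, that with VPA added to ATRA at 6 h, from 1 to 0.

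Counts of members with VPA added to ATRA at 6 h (1) were 0 with every probe set as a feature or a repeated quantile normalization, 2 without the dimmest genes or with only the compared groups, 3 under array weights, and 0 to 1 leaving out arrays. At 72 h (0) the count was 1 with averaged probe sets or the repeated normalization. With VPA alone, 24 h (2) gave 1 with only the compared groups, and 72 h (1) and its gain over 6 h (1) gave 2 under array weights or with only the compared groups. Interactions at 24 h (2) gave 1 after the repeated normalization, 0 with only the compared groups and 1 to 2 leaving out arrays, and at 72 h (1) 0 to 1. DMSO at 24 h (2) gave 1 after the repeated normalization or with the 3′ to 5′ covariate and 0 with only the compared groups; at 72 h (2) the covariate gave 1 and leaving out arrays 1 to 2.

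Counts of the 82 list genes with ATRA at 6 h (0) were 1 with averaged probe sets or the repeated normalization and 2 under array weights. At 24 h (14) 8 passed with only the compared groups, and at 72 h (24) 15 without the dimmest genes and 15 to 22 leaving out arrays. With VPA at 6 h (6, or 7.32% against 11.2% of all genes) averaged probe sets gave 3 and array weights 12. With VPA at 24 h (11, or 13.4% against 12.2%) only the compared groups gave 4. With VPA at 72 h (10) array weights gave 16 and leaving out arrays 6 to 10. With the combination at 6 h (4, or 4.88% against 11.6% of all genes) array weights gave 12 and leaving out arrays 2 to 4. With the combination at 24 h (18, or 22% against 21.2%) only the compared groups gave 6. Fits of only the compared groups hold fewer arrays; otherwise the cause was not tested. The filter on dim genes kept 4 members and dropped PLAU and SERPINI1, whose signal limits what they can show.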

Other observations

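The named list genes also had calls at the earlier times, and no difference in timing between genes or agents was tested. At 6 h none passed with ATRA. With VPA MRC2 rose by 0.62 ± 0.14 log2 units (limma adjusted p = 0.0035), SERPINB9 by 0.87 ± 0.17 (adjusted p = 0.00055), S100A10 by 0.40 ± 0.09 (adjusted p = 0.0025) and FN1 by 0.38 ± 0.11 (adjusted p = 0.024). The FN1 difference with ATRA at 6 h was also 0.38 ± 0.11 and did not pass (adjusted p = 0.091). The FN1 call with VPA was lost without DMSO 6 h replicate 1 or 2 or VPA 6 h replicate 2 or 3 (0.30 to 0.38). The MRC2 value at 6 h was 0.33 and did not pass when its probe sets were averaged. At 24 h ATRA raised FN1 by 2.52 ± 0.11 (adjusted p = 9.3e-17), SERPINB9 by 1.80 ± 0.17 (adjusted p = 1.9e-09), TIMP1 by 1.2 ± 0.12 (adjusted p = 1.3e-08) and IGF2R by 1.00 ± 0.17 (adjusted p = 3.7e-05). VPA raised MRC2 by 1.30 ± 0.14 (adjusted p = 1.8e-07) and S100A10 by 1.05 ± 0.09 (adjusted p = 1.1e-09) at that time. The TIMP1 difference with the combination at 24 h was 0.32 ± 0.12, which did not pass (adjusted p = 0.068). Without DMSO 24 h replicate 1, which stood apart, the ATRA values were 2.37 for FN1, 1.87 for SERPINB9, 1.02 for TIMP1 and 0.69 for IGF2R, and the VPA values 1.13 for MRC2 and 0.98 for S100A10, all still passing. With only the compared groups fitted, the FN1 call with VPA at 6 h and the IGF2R call with ATRA at 24 h were lost.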
